A study of Mus musculus with 4 samples.

Results

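The killer cell lectin-like receptors are the genes whose symbols begin with *Klr*. They were taken as every such gene with at least 20 unique molecular identifiers (UMIs, tags that count each captured RNA molecule once) over 4 single-cell libraries of mouse liver. Of 26 *Klr* genes in a list of 31053 genes, 24 met this minimum, among 13758 genes of the whole list that met it. *Klri1* and *Klra10* were just inside the minimum with 27 UMIs each, and *Klrg2* and *Klrb1* were left out with 14 and 3 UMIs.

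These receptors are C-type lectin-like proteins that natural killer (NK) cells, and some T cells, use to read the surface of other cells. The *Klra* genes encode the Ly49 receptors, most of which bind classical MHC class I and inhibit the cell, while others, such as Ly49D (*Klra4*) and Ly49H (*Klra8*), activate it through the adaptor DAP12 (*Tyrobp*). The *Klrb1* genes encode the NKR-P1 receptors, among them the NK1.1 antigen (*Klrb1c*). Some NKR-P1 receptors have Clec2 proteins as known partners. The *Klrc* genes encode NKG2A, NKG2C and NKG2E, which pair with CD94 (*Klrd1*) and bind Qa-1 (*H2-T23*). *Klrk1* encodes NKG2D, an activating receptor that signals through DAP10 (*Hcst*), *Klrg1* an inhibitory receptor for cadherins and a mark of mature effector cells, and *Klre1*, *Klri1* and *Klri2* the NKR-E and NKR-I chains, which pair with each other.

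Liver mononuclear cells of C57BL/6 mice aged 8 to 10 weeks were measured by droplet sequencing from the 5′ end of each RNA, with 1 library in each of 4 groups. The Naïve library came from mice without hepatitis. The other 3 came from mice given concanavalin A (ConA), a lectin from jack beans by which T cells are activated and the liver inflamed, followed by vehicle (ConA+Veh) or by TCDD (ConA+TCDD) or FICZ (ConA+FICZ), which are both ligands of the aryl hydrocarbon receptor (AhR), and cells were taken 24 hours after ConA. TCDD or its corn oil vehicle followed ConA after 1 hour, while the schedule of FICZ and the number of mice behind a library are not given in the sources used here. Since a group is 1 library, no test between groups was possible. Each interval below is a 95% interval that covers counting error only, not the spread between mice or between cells.

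The libraries held 2086, 2779, 1880 and 2555 cells in the order Naïve, vehicle, TCDD and FICZ, which is kept for every run of 4 values below, with medians of 2161 to 3984 UMIs per cell. The levels of the members were read in cells gated by other marker genes, none of them a *Klr* gene. The NK gate, which holds conventional NK cells and type 1 innate lymphoid cells (ILC1) together, had 143, 217, 229 and 215 cells. The innate-like T gate (*Zbtb16* or the V alpha 14 segment of invariant NKT cells) had 46, 33, 32 and 28, the gamma delta T gate 19, 32, 20 and 23, the CD8 T gate 168, 401, 272 and 244, and the CD4 T gate 70, 117, 81 and 76. *Ncr1*, the NK receptor NKp46, is itself a marker of the NK gate, so its level there is no independent check of that gate. It stood at 608, 329, 252 and 345 counts per 1000000 UMIs of the gate (CPM) in the NK gate and at 0 in the innate-like gate in each library. In the gamma delta gate it was not absent, at 96.0, 44.4, 60.1 and 67.7 CPM, and *Trbc1*, a T cell receptor constant gene that also gives sterile transcripts, stood at 428, 133, 169 and 183 CPM in the NK gate. That gate also held *Trbc2* at 161, 31.1, 51.7 and 56.0 CPM and *Trdc* at 87.9, 31.1, 33.5 and 34.4. *Cd28* stood there at 87.9, 66.3, 57.8 and 57.9 CPM, and *Cd5* at 0, 1.41, 0 and 0. Cycling cells, those with a UMI of *Mki67* or *Top2a*, were 2.80%, 24.0%, 15.3% and 11.6% of the NK gate and 5.36%, 75.8%, 58.1% and 60.2% of the CD8 gate. Of 9255 distinct barcodes, 45 occurred in more than 1 library, and 5 of them lay in these gates in both, and these cells were kept.

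The 24 members are protein-coding genes on chromosome 6 of GRCm38, between positions 122270596 and 131247362, a stretch of 8976767 bases, with 21 on the minus strand and 3 on the plus strand. The most abundant over all cells were *Klrd1* with 4004 UMIs, *Klrk1* with 2290, *Klrb1c* with 1848, *Klre1* with 1690, *Klra4* with 1392, *Klra7* with 1365, *Klrc1* with 1330 and *Klra8* with 1057. Of these, *Klra4* and *Klra8* had 78.9% and 75.9% of their UMIs in the NK gate, while *Klrd1* and *Klrc1* had 33.0% and 29.5% there. The 17 members with at least 100 UMIs in the 5 lymphocyte gates are described by library, and the other 7 (*Klra2*, *Klra5*, *Klra6*, *Klra10*, *Klra17*, *Klrc3* and *Klri1*) by counts and range. Near-identical copies limit some values, since the share of a gene's 50-base stretches found in another gene was 39.8% for *Klra10*, 38.6% for *Klrc1*, 36.3% for *Klrc3*, 33.1% for *Klra8* and 31.5% for *Klra9*, against 0% for *Klrd1*, *Klrk1*, *Klrg1*, *Klrb1f*, *Klra2* and *Klra17*. *Klrb1b* shared 27.2% and *Klrb1c* 16.98%, and both overlap *Gm44511* on the same strand.

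Within the Ly49 family the members split between lymphoid and myeloid cells. *Klra2* had 86.9% of its 540 UMIs and *Klra17* 65.5% of its 87 in the myeloid gate, and the NK gate held 1 UMI and 0 UMIs of them. Promoters of these 2 members and of the NK members *Klra4* and *Klra8* are shown because they belong to 1 gene family that these cells read differently. RefSeq's promoter table for GRCm38.p6, which spans 250 bases before to 50 after each start, matched 21 of the 24 members. Capitals mark the stretches of at least 10 bases found in each of the 4 promoters, and all 4 lie on the minus strand and read 5′ to 3′.
*Klra4*, chr6:130067222-130067521: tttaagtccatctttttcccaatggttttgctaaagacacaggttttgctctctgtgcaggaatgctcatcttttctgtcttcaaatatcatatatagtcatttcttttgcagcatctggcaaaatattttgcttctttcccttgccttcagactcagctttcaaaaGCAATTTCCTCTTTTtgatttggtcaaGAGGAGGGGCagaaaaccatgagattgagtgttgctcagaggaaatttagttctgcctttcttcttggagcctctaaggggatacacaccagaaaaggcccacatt
*Klra8*, chr6:130129849-130130148: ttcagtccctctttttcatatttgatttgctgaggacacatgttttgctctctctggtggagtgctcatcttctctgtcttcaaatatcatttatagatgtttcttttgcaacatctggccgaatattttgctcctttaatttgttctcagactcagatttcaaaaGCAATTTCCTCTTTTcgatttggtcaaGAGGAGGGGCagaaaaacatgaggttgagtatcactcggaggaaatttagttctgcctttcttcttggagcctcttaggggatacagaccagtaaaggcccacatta
*Klra17*, chr6:129876623-129876922: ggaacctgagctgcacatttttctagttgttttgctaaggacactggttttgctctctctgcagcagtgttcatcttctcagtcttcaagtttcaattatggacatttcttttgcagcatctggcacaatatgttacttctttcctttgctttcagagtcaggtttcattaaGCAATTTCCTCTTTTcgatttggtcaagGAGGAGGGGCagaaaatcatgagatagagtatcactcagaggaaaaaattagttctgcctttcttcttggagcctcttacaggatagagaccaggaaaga
*Klra2*, chr6:131247313-131247612: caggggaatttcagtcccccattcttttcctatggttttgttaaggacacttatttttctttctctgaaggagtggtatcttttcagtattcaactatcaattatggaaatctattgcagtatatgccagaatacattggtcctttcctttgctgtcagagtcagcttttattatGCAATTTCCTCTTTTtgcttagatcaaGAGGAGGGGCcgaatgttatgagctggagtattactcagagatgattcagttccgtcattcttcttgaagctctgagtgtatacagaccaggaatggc

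The 2 NK members were the most alike, with 86.0% identity between the promoters of *Klra4* and *Klra8*. *Klra17* was 79.9% and 79.4% identical to them and 75% to *Klra2*, which was 71.7% and 70.9% identical to *Klra4* and *Klra8*. GCAATTTCCTCTTTT occurred in 10 of 32851 promoters in the table (0.0304%), which belong to 7 members among others, and GAGGAGGGGC in 280 (0.852%). The T-box core TCACACC, searched on both strands, was in the promoter of 1 member (*Klra1*) of 21 and in 3.98% of all promoters. The Runx letters TGTGGT, on both strands, were in those of 8 members (*Klrb1a*, *Klrb1c*, *Klre1*, *Klrk1*, *Klrc1*, *Klrc2*, *Klrc3* and *Klra1*), in 34.6% of the 26 promoters of members and 16.8% of all. These matches describe letters only.

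**Figure D1:**
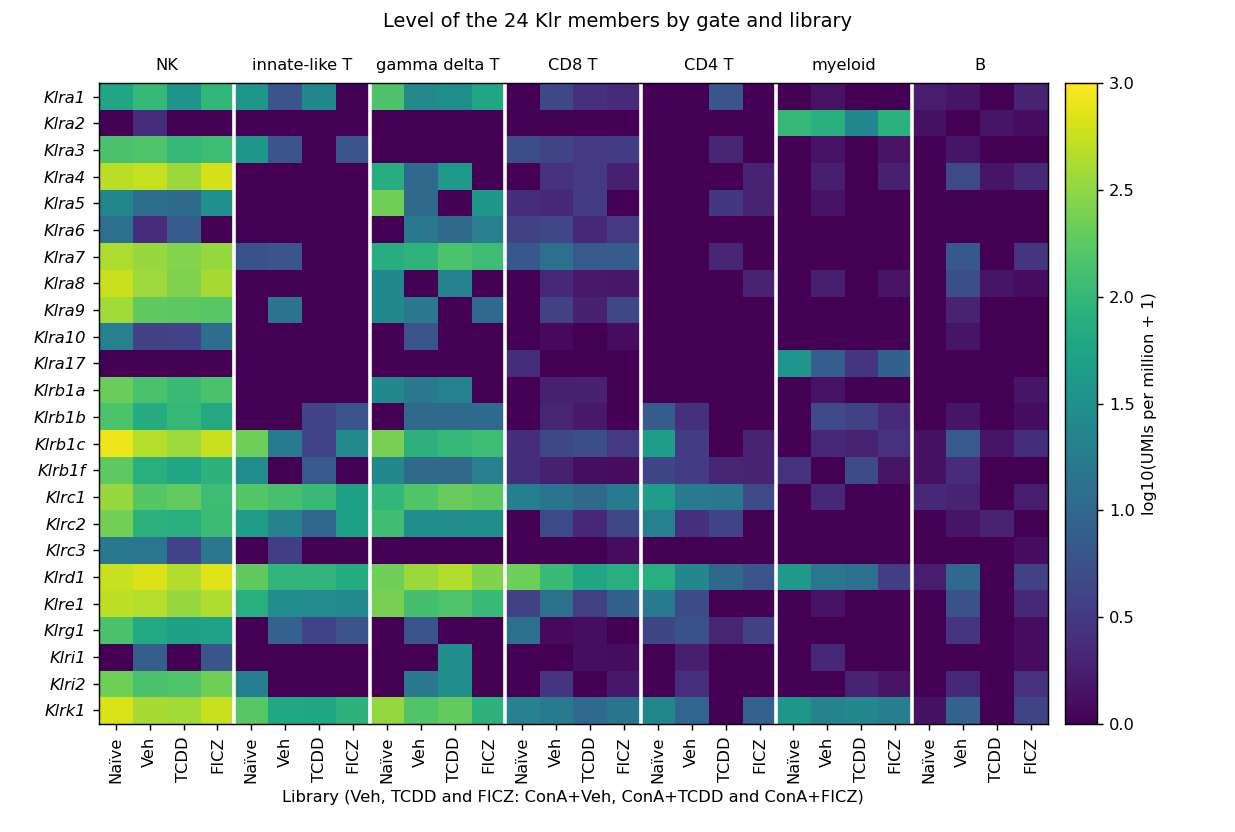
Level of each of the 24 members (vertical axis) in 7 gates of the 4 libraries (horizontal axis), as log10 of CPM plus 1. The NK columns are the brightest for most members, *Klrd1* is visible in every lymphocyte gate, and *Klra2* and *Klra17* are bright only in the myeloid columns.

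The family stood at its highest level in NK cells, although many of its UMIs lay in cells of no gate. For *Klrd1* these were 1052 of 4004 UMIs. All members together reached 6196, 4482, 3488 and 4855 CPM in the NK gate, against 1849, 1124, 1461 and 1054 in gamma delta cells, 966, 389.8, 328 and 324 in innate-like cells, 287, 192, 105 and 139 in CD8 cells, and 238, 68.0, 37.8 and 24.2 in CD4 cells. Of the 17 members described by library, the NK gate held the highest level for 16, 17, 16 and 16. The exceptions were *Klra1* in Naïve and *Klrc1* in ConA+TCDD and ConA+FICZ, each highest in gamma delta cells. The 17 were chosen by their UMIs over the lymphocyte gates. Of such UMIs the NK gate held 1098 of 1126 for *Klra4*, 802 of 816 for *Klra8* and 1322 of 2822 for *Klrd1*. The choice therefore favours members that NK cells hold, and the matching share of all genes is not given here. Among members left out, *Klra6* was highest in gamma delta cells in each ConA library and *Klra5* in Naïve and ConA+FICZ. These levels rest on at most 9 UMIs.

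A member is called higher or lower here where 2 levels differ at least 2-fold, the interval of their log2 ratio excludes 0 and at least 20 UMIs were counted in both together. By this rule NK cells were higher than CD8 cells for 16 of 16, 17 of 17, 17 of 17 and 17 of 17 members tested, where 17.0%, 12.9%, 14.6% and 17.4% of all genes were. Against CD4 cells the counts were likewise 16 of 16 and 17 of 17 in the other libraries, with 16.3%, 13.2%, 15.7% and 17.4% of all genes. Every member tested against CD8 and CD4 cells had at least 20 UMIs in NK cells alone, so this minimum selects members that NK cells hold. The same minimum was used against innate-like and gamma delta cells. Against innate-like cells 16, 16, 15 and 17 of 17 members were called higher (11.5%, 13.9%, 13.5% and 12.6% of all genes). Gamma delta cells came closest to NK cells, with 15 of 17, 15 of 17, 10 of 17 and 15 of 18 members called higher in NK (5.37%, 6.91%, 5.86% and 6.52% of all genes), and no member was called lower in NK than in any of these gates.

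Nearly every NK cell held a *Klr* molecule. After thinning each cell to 1000 UMIs, the share with a UMI of any member was 99.1% (exact binomial interval 95.04% to 99.98%), 96.9% (93.3% to 98.8%), 92% (87.3% to 95.4%) and 93.3% (88.2% to 96.6%), with 33, 25, 29 and 52 shallower cells left out. In CD8 cells it was 24.8%, 20.8%, 10.2% and 11.6%, and in B cells, which should lack these genes, 0.289%, 2.36%, 0.901% and 1.26%. Median depth before thinning was 1486, 2484, 2283 and 1794 UMIs in the NK gate and 2131.5, 4203.5, 3701 and 3628 in the B gate, and without thinning 53.6%, 55.4%, 33.1% and 43.4% of CD8 cells held a UMI. A thinned NK cell held a median of 4, 4, 3 and 3 distinct members and at most 9, 9, 9 and 10.

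Ly49 receptors are known to be switched on in single NK cells in varying combinations. At this depth a cell without a UMI may still carry the RNA, so the shares below count detected molecules. Any *Klra* member was seen in 69.1% (59.6% to 77.6%), 71.9% (64.9% to 78.1%), 56.5% (49.3% to 63.5%) and 74.8% (67.5% to 81.3%) of thinned NK cells, and at least 3 distinct ones in 14.5%, 13.5%, 6.5% and 14.7%. The share in ConA+TCDD was the lowest of the 4, and its interval lay below those of ConA+Veh and ConA+FICZ and overlapped that of Naïve. The gate mixes conventional NK cells and ILC1, which are split below. Without thinning, any *Klra* member was seen in 69.9%, 82.0%, 69.0% and 79.5% of its cells. On the conventional side alone these shares were 93.3%, 89.2%, 84.1% and 86.8%, with Naïve the highest. The part of this mix in the shares was not tested. *Klrd1* together with a *Klrc* partner was seen in 24.5%, 13.02%, 7.5% and 14.1% of NK cells.

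In the NK gate of Naïve liver the highest levels were those of *Klrb1c* at 837 CPM, *Klrk1* at 684, *Klra8* at 577, *Klrd1* at 562, *Klre1* at 516 and *Klra4* at 493. After ConA and vehicle the order changed, with *Klrd1* at 687 and *Klra4* at 545 above *Klre1* at 467 and *Klrb1c* at 464. The *Klra* genes together gave 34.4%, 38.0%, 34.9% and 36.9% of the family's UMIs in NK cells. The *Klrb1* genes gave 22.0%, 16.7%, 18.0% and 17.4%, and the *Klrc* genes 9.56%, 5.83%, 7.59% and 5.03%.

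**Figure D2:**
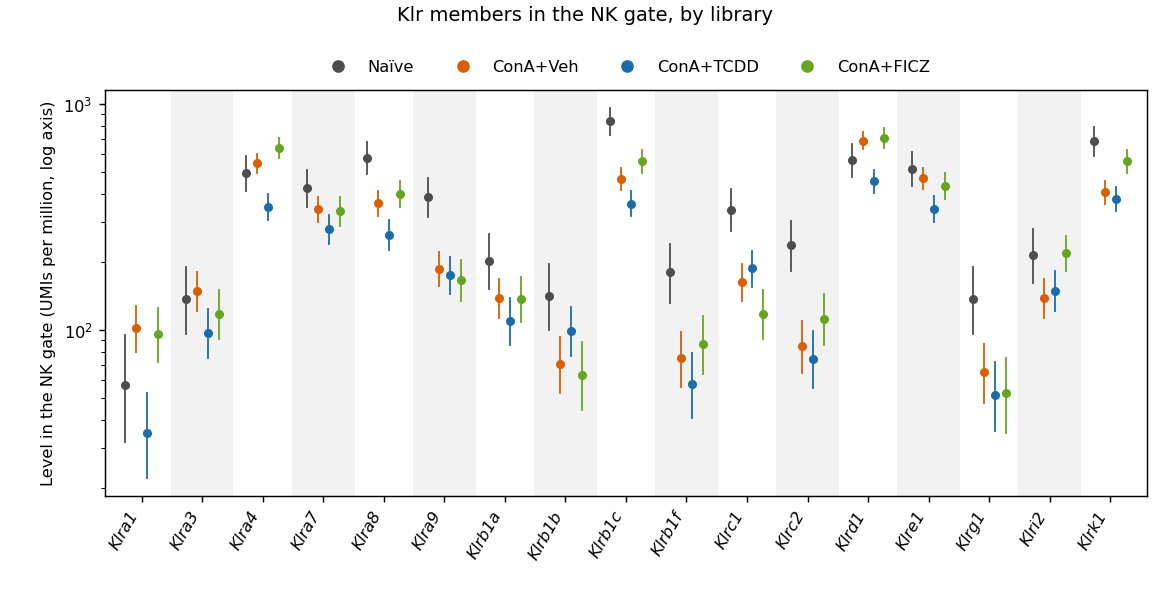
Level of the 17 members with at least 100 UMIs in the gates, in CPM on a log axis, in the NK gate of each library. Points are sums over the gated cells and bars are exact 95% Poisson intervals. The Naïve point lies above the other 3 for *Klra7*, *Klra8*, *Klra9*, *Klrb1a*, *Klrb1b*, *Klrb1c*, *Klrb1f*, *Klrc1*, *Klrc2*, *Klre1*, *Klrg1* and *Klrk1*.

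The NK gate was further split by 7 markers of conventional NK cells against 8 of ILC1, and the Ly49 genes followed this split. The conventional side held 89, 186, 170 and 182 cells and the ILC1 side 36, 15, 32 and 10. Summed over the libraries, the *Klra* genes together stood at 1865 CPM on the conventional side and 246 on the ILC1 side, a log2 ratio of 2.92 [2.54, 3.33]. The *Klrb1* genes differed little, with -0.15 [-0.36, 0.07], and the *Klrc* genes were higher on the ILC1 side, with -0.91 [-1.20, -0.60]. By library the *Klrc* ratio was -0.28 [-0.81, 0.28] in Naïve, -1.003 [-1.61, -0.34] in ConA+Veh, -0.87 [-1.39, -0.33] in ConA+TCDD and -0.26 [-1.53, 1.38] in ConA+FICZ, and the share of cells on each side differed between libraries.

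*Klra4* was the clearest case, with 1077 UMIs on the conventional side and 1 on the ILC1 side, a log2 ratio of 7.08 [4.59, 12.38]. *Klra8* had 778 against 8 UMIs (3.61 [2.62, 4.82]), *Klra7* 690 against 9 (3.26 [2.33, 4.399]) and *Klra9* 399 against 19 (1.40 [0.73, 2.14]). *Klrg1* had 135 against 0, which with a floor of 3 UMIs over the 4 libraries is at least 5.64-fold higher on the conventional side.

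On the ILC1 side *Klrc1* stood at 369 against 154 CPM (-1.27 [-1.62, -0.90]) and *Klrb1b* at 202 against 66.6 (-1.60 [-2.10, -1.08]). *Klra5* was a Ly49 gene that went the other way, with 21 UMIs on the conventional side and 14 on the ILC1 side (-2.41 [-3.46, -1.32]). Of these 14 UMIs, 5 in Naïve came from 2 cells and 6 in ConA+FICZ from 2 cells. In ConA+Veh and ConA+TCDD the interval for *Klra5* included 0. *Klrk1* at -0.15 [-0.43, 0.14] and *Klrb1a* at -0.22 [-0.73, 0.32] had intervals that included 0 when the libraries were summed. In ConA+FICZ, where the ILC1 side held 10 cells, *Klrk1* was at 2.31 [0.44, 5.36] and the *Klrb1* genes together at 1.92 [0.55, 3.80], from 2 and 4 UMIs on that side. The split used no *Klr* gene.

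By library, 6 of 16, 6 of 17, 7 of 17 and 3 of 17 members were called higher on the conventional side, beside 5.06%, 1.75%, 3.25% and 1.25% of all genes. The conventional side held 169828, 633540, 509408 and 503827 UMIs of all genes, and the ILC1 side 63350, 53734, 92704 and 17773. The minimum of 20 UMIs over both sides therefore favours members that the conventional side holds. On the ILC1 side *Klrb1b* and *Klrc1* were called higher in ConA+Veh and ConA+TCDD, 2 of 17 members each, and 0 in Naïve and ConA+FICZ, beside 4.42%, 3.23%, 3.63% and 3.32% of all genes. The 10 ILC1-side cells of ConA+FICZ held 24 of the 56 *Klra* UMIs of that side, and there the ratio of the *Klra* genes was 0.47 [-0.11, 1.12], against 3.40, 4.64 and 3.80 in the other libraries. These 24 UMIs came from 4 cells, with 8 *Klra7* UMIs from 1 cell and 7 *Klra8* UMIs from 1 cell.

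**Figure D3:**
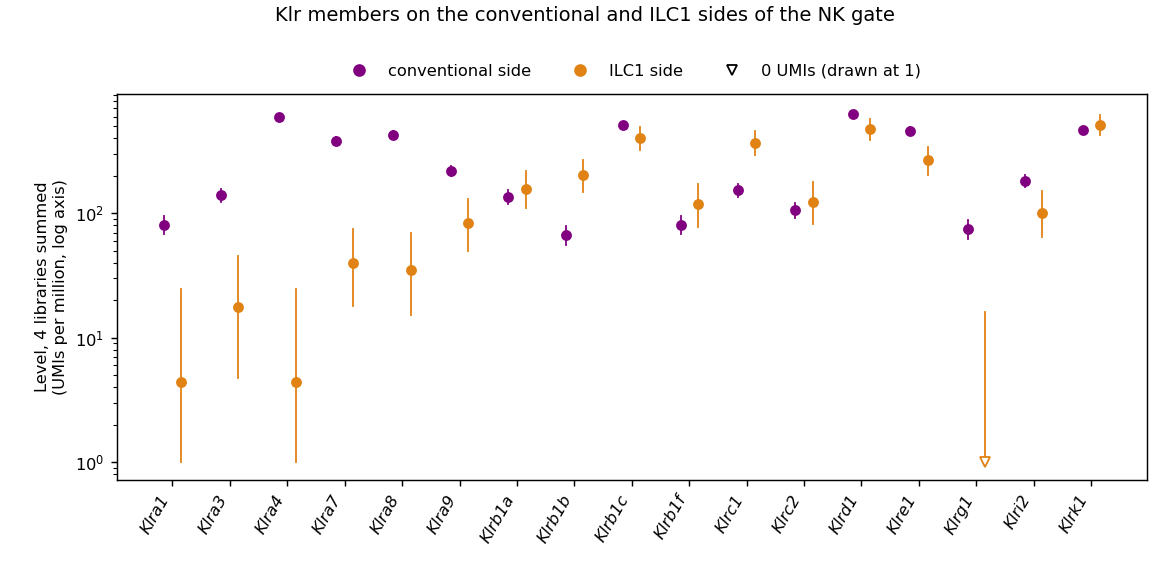
Level of the 17 members on the conventional and the ILC1 side of the NK gate, in CPM on a log axis, with the 4 libraries summed. Bars are exact 95% Poisson intervals, cut off at 1, and the open triangle is a count of 0 drawn at 1. The Ly49 genes on the left lie higher on the conventional side, *Klrc1* and *Klrb1b* higher on the ILC1 side, and *Klrk1* has overlapping bars.

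ConA and vehicle against Naïve asked how hepatitis altered the family. The family's share of the UMIs of NK cells was lower in ConA+Veh, with a log2 ratio of the sum of -0.47 [-0.55, -0.38]. Such a ratio compares shares of all UMIs, not amounts per cell. The gate held 1621 UMIs of the family in 143 Naïve cells and 3175 in 217 ConA+Veh cells. Median depth was 1486 and 2484 UMIs per cell. *Klrc2* and *Klrb1f* had the lowest ratios to Naïve, followed by *Klrg1* and *Klrc1*. In the gate as a whole the Ly49 genes *Klra1*, *Klra3* and *Klra4* and the CD94 gene *Klrd1* were not lower. Of 17 members tested 6 were called lower and 0 higher, beside 12.2% of all genes called lower and 6.89% called higher. The median over the members was -0.67 and that over all 5456 genes tested was -0.13.

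*Klrc2*, which encodes the activating NKG2C, stood at 237, 84.7, 74.5 and 112 CPM, and its ratio of ConA+Veh over Naïve was -1.48 [-2.02, -0.95]. *Klrc1*, for the inhibitory NKG2A, stood at 340.2, 162, 187 and 118, with a ratio of -1.07 [-1.48, -0.65]. For both, the Naïve interval lay above those of the other libraries. Any *Klrc* member was seen in 49.1% (39.4% to 58.8%) of thinned NK cells in Naïve and in 25.5% (19.5% to 32.3%) in ConA+Veh, so that a molecule was detected in a smaller share of cells. *Klrg1* was at 138, 64.9, 51.7 and 52.4 CPM, with a ratio of -1.08 [-1.74, -0.41].

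Among the NKR-P1 genes, *Klrb1f* was at 179.6, 74.8, 57.8 and 86.8 CPM, with a ratio of -1.26 [-1.86, -0.67], and *Klrb1b*, an inhibitory receptor for Clr-b (*Clec2d*), was at 141, 70.6, 98.8 and 63.3, with a ratio of -1.003 [-1.64, -0.35]. The NK1.1 gene *Klrb1c* was at 837, 464, 362 and 557, with a ratio of -0.85 [-1.10, -0.60] that did not reach 2-fold. *Klrb1a* was at 203, 138, 109 and 137. The Naïve library was the highest of the 4 for each of these genes. *Klra9* was the only Ly49 gene called lower, at 386, 186, 175 and 166 and a ratio of -1.05 [-1.44, -0.66].

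In the gate as a whole the other Ly49 genes did not move as a block. *Klra8* was at 577, 363, 263 and 399.6 CPM, a ratio of -0.67 [-0.97, -0.37], and *Klra7*, for the MHC class I receptor Ly49G2, was at 424, 342, 278 and 334, a ratio of -0.31 [-0.64, 0.02]. *Klra4* was at 493, 545, 350 and 638, a ratio of 0.14 [-0.15, 0.44], and *Klra3*, for the inhibitory Ly49C, was at 138, 148, 97.3 and 118, a ratio of 0.11 [-0.45, 0.70]. *Klra1*, for the inhibitory Ly49A, was at 57.3, 102, 34.97 and 95.8, a ratio of 0.83 [0.01, 1.74], and 46.7% of its 15 UMIs in Naïve came from 1 cell. *Klrd1* was at 562, 687, 453 and 705, a ratio of 0.29 [0.02, 0.57]. On the conventional side alone, Naïve and ConA+Veh stood at 760 and 605 CPM for *Klra4* and 177 and 159 for *Klra3*. They stood at 642 and 368 for *Klra7*, 860 and 404 for *Klra8* and, the other way, 47.1 and 104 for *Klra1*. That side held 89 cells in Naïve and 186 in ConA+Veh, and the part of this split in the whole-gate ratios was not tested.

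*Klrk1*, which encodes NKG2D, was at 684, 405, 380.2 and 557 CPM, with a ratio of -0.76 [-1.03, -0.48], and *Klri2* was at 214, 138, 149 and 219, with -0.63 [-1.12, -0.13]. *Klre1*, its partner chain, was at 516, 467, 344 and 434, with -0.14 [-0.44, 0.16]. Other genes moved with these values in the same cells. *Gzmb*, an effector granule gene, was at 1705, 6488, 5234 and 5429.6, and the depth and cycling shares given above also differed, and their part in these ratios was not tested. Taken as the mean of each cell's share of UMIs, which gives shallow cells the same weight, 3 members were called lower, and *Klra9*, *Klrb1b* and *Klrc1* were not. *Klra9* and *Klrb1b* also lost the call with gates on thinned cells and with totals without ribosomal and mitochondrial genes, and *Klrb1b* with stricter gates. On the conventional side alone *Klrc1* was not called and *Klra8* was.

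**Figure D4:**
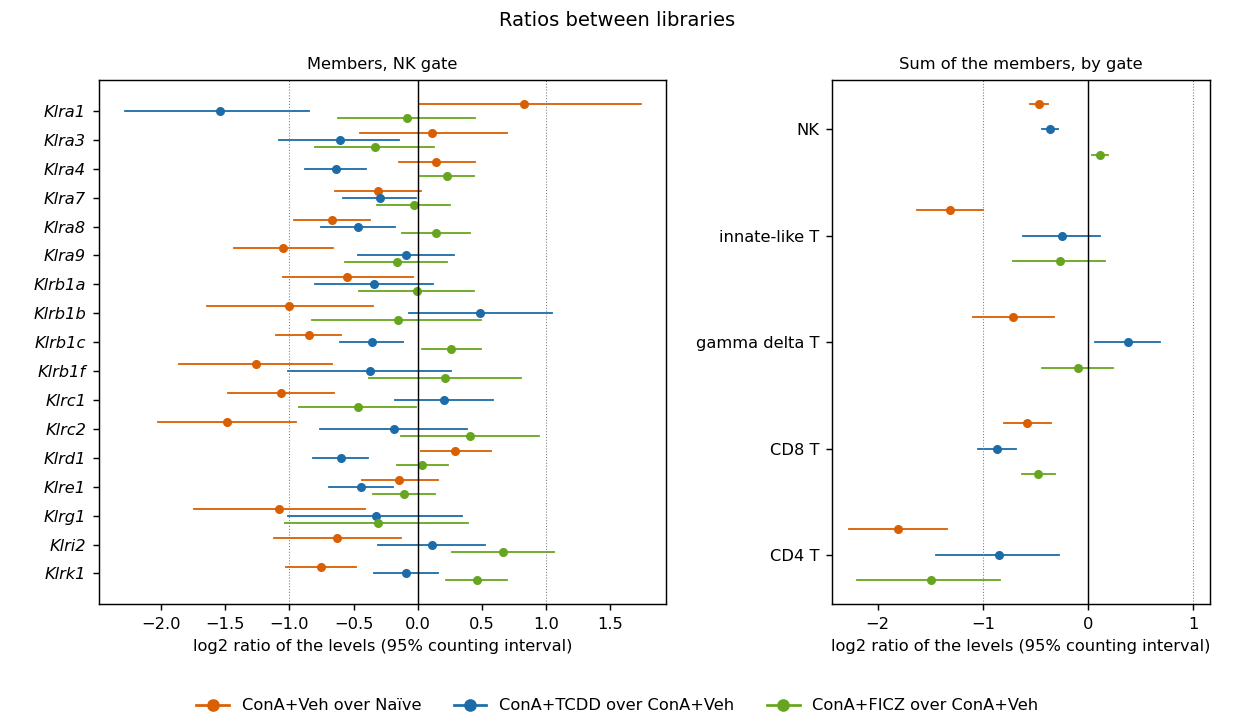
Log2 ratios between libraries with 95% counting intervals, for 17 members in the NK gate (left) and for the sum of the members in each gate (right). Dotted lines mark 2-fold. In the NK gate most ConA+Veh over Naïve points lie left of 0, *Klra1* lies at -1.54 for ConA+TCDD over ConA+Veh, and the ConA+FICZ points lie on both sides of 0, with a sum whose sign turns when each cell weighs the same.

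TCDD against vehicle after ConA asked whether an AhR ligand altered the family. The family's share of the UMIs of NK cells was lower in ConA+TCDD than in ConA+Veh. The ratio of the sum was -0.36 [-0.44, -0.28] and the median over 17 members was -0.34, where the median of 6108 genes was -0.08. *Klra1* was called lower, at 34.97 against 102 CPM and a ratio of -1.54 [-2.28, -0.84]. It was 1 of 17 members, while 2.37% of all genes were called lower, and none of 17 was called higher (1.34% of all genes).

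By family the ratio was -0.48 [-0.61, -0.35] for the *Klra* genes together, -0.25 [-0.44, -0.06] for the *Klrb1* genes and 0.02 [-0.29, 0.33] for the *Klrc* genes. Ratios of ConA+TCDD over ConA+Veh were -0.64 [-0.88, -0.40] for *Klra4*, -0.61 [-1.08, -0.14] for *Klra3*, -0.46 [-0.75, -0.18] for *Klra8*, and -0.30 [-0.58, -0.01] for *Klra7*. They were -0.60 [-0.81, -0.39] for *Klrd1*, -0.44 [-0.69, -0.19] for *Klre1* and -0.36 [-0.61, -0.11] for *Klrb1c*. None of these reached 2-fold. The intervals of the other 9 members included 0, with ratios from -0.37 [-1.01, 0.26] for *Klrb1f* to 0.49 [-0.07, 1.05] for *Klrb1b*, and among them were the Ly49 gene *Klra9* at -0.09 [-0.47, 0.28], *Klrk1* at -0.09 [-0.34, 0.16] and *Klrc1* at 0.20 [-0.17, 0.58]. The ILC1 side of the NK gate, described above, held 32 cells in ConA+TCDD and 15 in ConA+Veh. On the conventional side alone the ratio of the sum was -0.27. There the *Klra* genes together stood at 1498 CPM in ConA+TCDD against 1852 in ConA+Veh. In the same order *Klra4* was at 432 and 605, *Klra3* at 126 and 159, *Klra8* at 332 and 404, and *Klra7* at 345 and 368. The part of this split in the whole-gate ratios was not tested.

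FICZ against vehicle gave another picture in NK cells. The 2 ratios share the ConA+Veh library, so they are given side by side only. The sum was 0.12 [0.04, 0.19] for ConA+FICZ over ConA+Veh, and the same ratio was -0.08 when each cell had the same weight. *Klra5* was called higher, from 8 to 17 UMIs and a ratio of 1.44 [0.15, 2.87], which was 1 of 18 members tested beside 2.55% of all genes, and it was not called on the conventional side alone. In ConA+FICZ 7 of its 17 UMIs came from 1 cell. None was called lower (2.15% of all genes). *Klri2* at 0.66 [0.26, 1.06] and *Klrk1* at 0.46 [0.22, 0.70] had the highest ratios of the well-counted members, and *Klrc1* at -0.47 [-0.93, -0.01] the lowest.

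Innate-like T cells, which include invariant NKT cells, held the NK1.1 gene in Naïve liver and little of it after ConA. *Klrb1c* was at 215, 15.6, 2.98 and 25.3 CPM, from 46, 6, 1 and 5 UMIs, and the ratio of ConA+Veh over Naïve was -3.78 [-5.30, -2.55]. A UMI of any *Klrb1* gene was seen in 29.5% of thinned cells in Naïve (16.8% to 45.2%) and in 3.03%, 3.23% and 3.85% after ConA, beside 0% (0 of 1037 cells, which allows up to 0.289%), 0.443%, 0.300% and 0.419% of B cells. The Naïve share lay above the other 3, whose intervals overlapped those of B cells.

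*Klrk1* was at 163, 59.8, 56.6 and 86.1, with -1.45 [-2.28, -0.65], and *Klre1* at 74.7, 28.6, 26.8 and 25.3, with -1.39 [-2.64, -0.19]. These 3 genes were called lower of 5 members tested, and 0 were called higher, beside 12.3% of all genes lower and 7.36% higher. *Klrd1* was at 182, 93.5, 92.4 and 70.9 (-0.96 [-1.66, -0.27]), while *Klrc1* was at 159, 133, 104 and 50.7 (-0.26 [-0.91, 0.41]). The *Klrc* genes gave 21.3% of the family's UMIs in these cells in Naïve and 40% in ConA+Veh, and the *Klrb1* genes 25.1% and 4%.

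The Ly49 genes were scarce in innate-like cells, with 17, 11, 8 and 1 UMIs in all, of which 11 in Naïve came from 1 cell. Cycling cells made up 10.9%, 60.6%, 62.5% and 25% of this gate. With stricter gates, which left 8 Naïve and 15 ConA+Veh cells, the ratio of the sum was -0.38 against -1.31 [-1.62, -0.9999] as gated, and none of the 3 genes was called lower.

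Between the ConA libraries these cells differed less. In ConA+TCDD none of 4 members tested was called in either direction, with 2.21% of all genes called higher and 2.16% lower, and the sum was -0.25 [-0.62, 0.11]. In ConA+FICZ *Klrc1* was called lower, from 51 to 10 UMIs (-1.39 [-2.53, -0.39]), as 1 of 3 members tested, beside 5.56% of all genes, and none was called higher (2.63% of all genes). The sum was -0.27 [-0.71, 0.17], and both sums changed sign under stricter gates.

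Gamma delta T cells carried the family at the next highest level after NK cells. This gate also held *Tyrobp*, at 1080, 390, 641 and 406 CPM, against 9.34, 7.80, 53.6 and 0 in innate-like cells. Of its *Klr* UMIs, 55.8%, 39.5%, 45.9% and 45.0% came from 3 cells of each library. The part of cells with NK genes in this rank was not tested. *Klrd1* was at 216, 355, 450.4 and 271 CPM, and *Klrc1* at 96.0, 153, 200.2 and 174, so that for these genes the Naïve library was the lowest. The Naïve levels rest on 9 and 4 UMIs. Their intervals, 98.8 to 410 and 26.2 to 246 CPM, overlapped those of each ConA library. *Klrb1c* was at 240.1, 83.8, 100.1 and 116.0, with a ratio of ConA+Veh over Naïve of -1.52 [-2.73, -0.23], and *Klrk1* at 336, 153, 190.2 and 87.0, with -1.14 [-2.09, -0.11]. They were the 2 members called lower of 6 tested, beside 7.00% of all genes, with none called higher (10.8% of all genes). Both calls were lost with stricter gates and with gates on thinned cells, *Klrk1* also without the deepest cells and *Klrb1c* without cells holding *Ncr1* or *Eomes*. In Naïve, 80% of the 10 *Klrb1c* UMIs and 78.6% of the 14 *Klrk1* UMIs came from 3 cells.

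The sum over the members in these cells was -0.72 [-1.10, -0.33] for ConA+Veh over Naïve. Few molecules stand behind it, 77, 228, 146 and 109 UMIs in all, and single cells weigh much, since 9 of the 18 *Klra7* UMIs in ConA+Veh and 8 of 14 in ConA+TCDD came from 1 cell. For ConA+TCDD over ConA+Veh all 6 members tested lay above 0 and the sum was 0.38 [0.07, 0.68], but none was called higher (1.40% of all genes) or lower (4.01%), and the sum was -0.19 in non-cycling cells. For ConA+FICZ over ConA+Veh the sum was -0.09 [-0.44, 0.24], with 0 of 6 called higher (2.55% of all genes) or lower (5.30%). In cells without a UMI of *Ncr1* or *Eomes* the 3 sums were -1.25, 1.28 and 0.05.

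**Figure D5:**
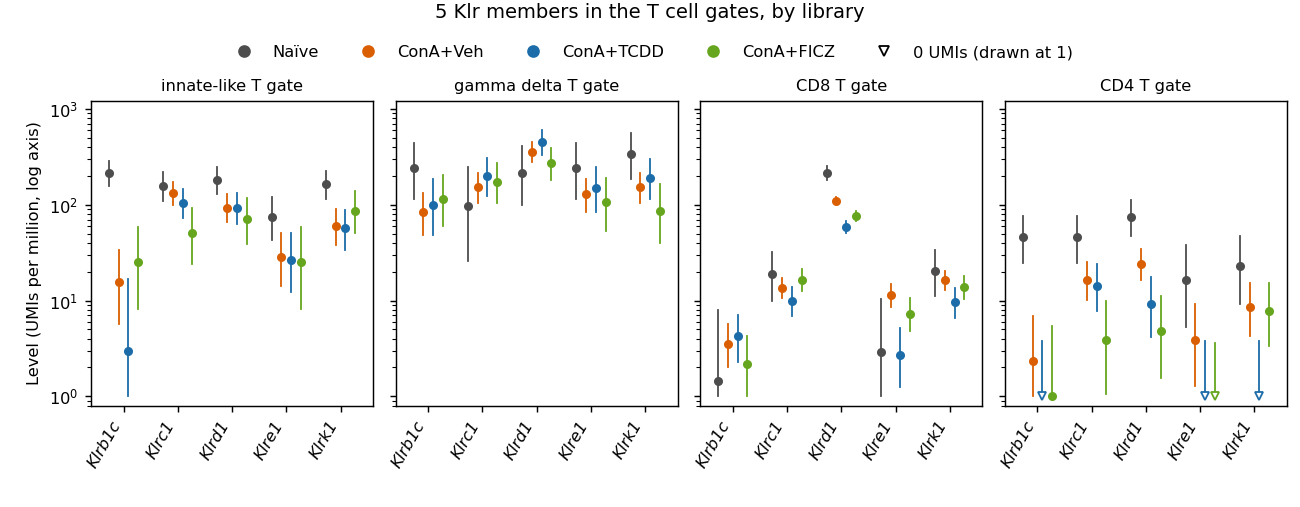
Level of 5 members in the T cell gates of each library, in CPM on a log axis with exact 95% Poisson intervals, open triangles marking counts of 0 drawn at 1. *Klrb1c* in innate-like cells is at 215 in Naïve and at most 25.3 after ConA, and *Klrd1* is the highest of the 5 in CD8 cells in every library.

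In CD8 T cells CD94 was the main member. *Klrd1* gave 74.9%, 57.2%, 55.4% and 55.2% of the family's UMIs there and stood at 215, 110.0, 58.4 and 76.5 CPM. These levels are shares of all UMIs of the gate, not amounts per cell. The gate held 149 *Klrd1* UMIs in 168 Naïve cells and 532 in 401 ConA+Veh cells. The ratio of ConA+Veh over Naïve was -0.97 [-1.23, -0.70], that of ConA+TCDD over ConA+Veh -0.91 [-1.16, -0.67] and that of ConA+FICZ over ConA+Veh -0.52 [-0.74, -0.31], and none reached 2-fold. A UMI of *Klrd1* was seen in 19.4% (13.7% to 26.3%), 13.3% (10.1% to 17.1%), 7.20% (4.39% to 11.0%) and 5.81% (3.21% to 9.55%) of thinned CD8 cells, and in 0.0964%, 0.739%, 0% (0 of 333 cells, which allows up to 0.901%) and 0.279% of B cells.

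*Klre1* went from 2 UMIs in Naïve to 55 in ConA+Veh, or 2.89 to 11.4 CPM (1.98 [0.06, 5.06]), and was the 1 member called higher of 5 tested, beside 11.7% of all genes, with none called lower (9.66%). *Klra7* had 4 and 57 UMIs (1.03 [-0.41, 2.95]). *Klrg1*, by contrast, had 8 UMIs in Naïve and 1, 1 and 0 after ConA. The *Klre1* call was lost with stricter gates, with gates on thinned cells and with totals that leave out ribosomal and mitochondrial genes. The sum was -0.58 [-0.80, -0.35], and it was 0.81 in non-cycling cells and 0.31 when each cell had the same weight, so the direction of the ConA difference in CD8 cells depends on which cells are weighed.

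In CD8 cells the family's share of UMIs was lower in both AhR ligand libraries than in ConA+Veh. The sums were -0.87 [-1.05, -0.69] for ConA+TCDD and -0.47 [-0.63, -0.31] for ConA+FICZ, and -1.62 and -1.35 in non-cycling cells. For ConA+TCDD *Klre1* at 2.71 against 11.4 CPM (-2.07 [-3.27, -1.04]) and *Klrc2* with 4 against 18 UMIs (-1.63 [-3.65, -0.02]) were called lower, 2 of 10 members beside 1.94% of all genes, and none was called higher (0.731%). The *Klrc2* call was lost with stricter gates, gates on thinned cells, cell shares, low-quality cells left out and the deepest cells left out, and the *Klre1* call with gates on thinned cells. The median over the 10 members was -0.94, where that over 9433 genes was -0.03. For ConA+FICZ 0 of 11 members were called lower (2.73% of all genes) or higher (1.13%), and their median was -0.52, where that over 9493 genes was -0.01. *Klrk1* was at 20.2, 16.3, 9.64 and 13.8 and *Klrc1* at 18.8, 13.6, 9.94 and 16.5 CPM in CD8 cells.

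CD4 T cells held the least. *Klrd1* was at 74.9, 24.2, 9.20 and 4.83 CPM, from 23, 31, 9 and 5 UMIs, and *Klrc1* at 45.6, 16.4, 14.3 and 3.87, from 14, 21, 14 and 4. Both were called lower in ConA+Veh than in Naïve (-1.63 [-2.45, -0.78] and -1.47 [-2.52, -0.39]), the 2 members tested, beside 7.78% of all genes called lower and 6.75% called higher. *Klrb1c* had 14 UMIs in Naïve and 3, 0 and 1 after ConA. In ConA+TCDD *Klrd1* was again called lower, 1 of 2 members beside 2.12% of all genes lower and 0.872% higher (-1.40 [-2.65, -0.29]), and in ConA+FICZ *Klrd1* (-2.33 [-4.05, -0.95]) and *Klrc1* (-2.09 [-4.09, -0.52]) were, 2 of 2 beside 3.89% of all genes lower and 1.59% higher. In ConA+Veh, 77.4% of the 31 *Klrd1* UMIs came from 3 cells. A *Klrd1* UMI was seen in 8 of 117 cells there, 5 of 81 in ConA+TCDD and 3 of 76 in ConA+FICZ. In 70 Naïve cells 6 of the 14 *Klrc1* UMIs came from 1 cell. Of thinned CD4 cells, 20.6%, 7.08%, 3.75% and 2.70% held a UMI of any member. The intervals of these shares in the 3 ConA libraries overlap those of B cells. The sums were -1.81 [-2.27, -1.34], -0.85 [-1.44, -0.28] and -1.49 [-2.20, -0.84] for the 3 comparisons. With gates on thinned cells the first was -0.08, and the second was 0.23 when each cell had the same weight.

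Outside the lymphocyte gates, *Klra2*, for the inhibitory Ly49B of myeloid cells, and *Klra17*, for Ly49Q of plasmacytoid dendritic cells, made their own pattern. *Klra2* stood at 99.8, 78.7, 22.8 and 81.6 CPM in the myeloid gate, where 35 of 115, 106 of 319, 17 of 94 and 111 of 409 cells held a UMI of it. ConA+TCDD was the lowest library, with a ratio over ConA+Veh of -1.78 [-2.46, -1.17], 1 of 3 members tested beside 3.78% of all genes, whereas ConA+FICZ was at 0.05 [-0.24, 0.35]. The myeloid gate mixes several cell types, so fewer *Klra2*-bearing cells and less RNA per cell cannot be told apart there.

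*Klra17* was at 35.6, 6.79, 1.90 and 7.65 CPM in the myeloid gate, with -2.39 [-3.41, -1.38] for ConA+Veh over Naïve. In the *Siglech*-positive cells of this gate, 9, 16, 6 and 6 in number, *Klra17* was at 437, 56.2, 28.2 and 54.9. These levels rest on 17, 5, 1 and 2 UMIs, out of 20, 17, 2 and 18 in the whole myeloid gate. In ConA+TCDD and ConA+FICZ they lie below the level that 3 UMIs would give, 84.6 and 82.4 CPM. *Klra2* had 0 UMIs in the *Siglech*-positive cells in all 4 libraries. *Klrd1* was at 41.0, 13.98, 11.4 and 2.55 in the myeloid gate and at 309, 315, 169 and 82.4 in the *Siglech*-positive cells, from 12, 28, 6 and 3 UMIs. *Klra17* and *Klrd1* were the 2 members called lower of 4 tested in ConA+Veh over Naïve (10.4% of all genes, with 3.81% higher), and *Klrd1* the 1 of 4 in ConA+FICZ over ConA+Veh (2.34%, with 4.80% higher). *Klra6* also had few of its UMIs in NK cells, 8 of 94, and *Klra10*, *Klrc3* and *Klri1* had 0 to 6, 2 to 10 and 0 to 5 UMIs in the NK gate of a library.

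The genes that work with these receptors are given by role, and in NK cells 12.2% of all genes were called lower in ConA+Veh than in Naïve. In NK cells the DAP10 gene *Hcst* was at 906, 401, 421 and 488 CPM, called lower in ConA+Veh (-1.18 [-1.43, -0.92]), the 1 of 13 adaptor and signalling genes tested, of 14 listed. *Tyrobp*, for DAP12, was at 3081, 3059, 2302 and 2813, and *H2-T23*, for Qa-1, at 547, 419, 297 and 474. Of 13 ligand genes 5 were tested and *Clec2i* was called lower, at 49.7, 16.9, 3.04 and 16.3. *Tbx21* (183, 84.7, 109 and 116) and *Prdm1* (76.4, 38.1, 24.3 and 50.6), transcription factors of effector lymphocytes, were called lower of 4 regulators tested, of 5 listed (-1.12 [-1.69, -0.54] and -1.004 [-1.89, -0.09]), while *Eomes* was at 218, 200.5, 152 and 148.

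In ConA+TCDD and in ConA+FICZ against ConA+Veh none of these genes was called in NK cells in either direction. In CD8 cells *Hcst* was at 475 in Naïve and 87.2 in ConA+Veh (-2.44 [-2.66, -2.23]), and *Sh2d1a*, *Eomes* and 4 of 6 ligand genes tested (*H2-T23*, *H2-K1*, *H2-D1* and *Clec2d*) were also called lower, beside 9.66% of all genes. The adaptor genes *Tyrobp* (1.09 [0.21, 2.12]) and *Fcer1g* (1.73 [0.90, 2.70]) were called higher in ConA+Veh, beside 11.7% of all genes, and *Tyrobp* lower in ConA+TCDD (-1.19 [-1.68, -0.72]) and in ConA+FICZ (-2.01 [-2.61, -1.45]) than in ConA+Veh, beside 1.94% and 2.73% of all genes. *Fcer1g* was also called lower in ConA+FICZ (-1.29 [-1.65, -0.94]). Both genes are also abundant in myeloid cells and served as NK gate markers, and the part of RNA from other cells in their CD8 values was not tested.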

How the data were processed

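The submitters' processing notes name Cell Ranger 3.0.2, bcl2fastq and the mm10 genome, and the authors deposited raw UMI counts per gene and cell for 4 libraries, 1 per group. The deposited counts were read as whole numbers, the shallowest cell of a library holding 500 or 501 UMIs. Columns of other samples numbered 0. Cells were gated on marker UMIs without any *Klr* gene. A cell with at least 2 UMIs of B markers, or 2 distinct myeloid or 2 distinct endothelial markers, was left out of the 5 lymphocyte gates. T gates needed CD3 genes and a lineage marker. The NK gate needed 3 of 10 NK markers, at least 1 of them *Ncr1*, *Eomes*, *Prf1* or *Txk*. It excluded cells with a UMI of *Cd3d*, *Cd3e*, *Trac*, *Cd4*, *Cd8a* or *Cd8b1*, allowed 1 UMI of *Cd3g*, and did not read other T cell genes. No doublet caller was run.

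UMIs were summed over the cells of a gate and divided by all UMIs of the gate, times 1000000 (CPM). Intervals at 95% were exact Poisson for levels, exact Clopper-Pearson binomial for shares and exact binomial for ratios, and where 0 UMIs were counted the bound was taken at 3. All cover counting error only and treat UMIs as independent, so the clustering of UMIs in single cells is not covered. No p-value was computed, since a group is 1 library. For shares cells were thinned to 1000 UMIs, which dropped those with fewer. Members were all named, those with at least 100 UMIs in the 5 gates by library and the others by range, and the pathway genes by counts. The members, gene lists and gates were chosen with earlier results of these data known.

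Alternatives were stricter gates, gates on thinned cells, the mean of each cell's share, totals without ribosomal and mitochondrial genes, cells with under 200 genes or over 10% mitochondrial UMIs left out, the deepest 5% of cells left out, no minimum for members, non-cycling cells, and other thinning. The conventional NK side alone, and gamma delta cells without a UMI of *Ncr1* or *Eomes*, were added after seeing the data. Tested on simulated counts, the call rule recovered at least 98.5% of changed genes with enough counts, and at least 96.3% of intervals covered the true ratio. These shares describe the simulated counts only. In the data UMIs cluster in single cells, as for *Klra1* in Naïve NK cells, where 46.7% came from 1 cell. Python 3.11.15 was used with numpy 2.4.6, scipy 1.17.1 and matplotlib 3.10.9.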

Additional observations from a re-analysis of the deposited data

Results flagged for a closer look

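Several values had opposite signs in different cell types under the same comparison. None of these differences between gates was tested, since each group is 1 library. Some of these signs also turned under the alternatives given below. The sum for ConA+TCDD over ConA+Veh turned negative in non-cycling gamma delta cells and positive by cell shares in CD4 cells. The sum for ConA+FICZ over ConA+Veh in NK cells turned negative by cell shares. The *Klre1* calls in CD8 and innate-like cells were both lost with strict gates and with gates on thinned cells.

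*Klrd1*, the CD94 gene, had a log2 ratio of ConA+Veh over Naïve of 0.29 in NK cells but of -0.96 in innate-like, -0.97 in CD8 and -1.63 in CD4 T cells. *Klre1* had a ratio of 1.98 in CD8 cells, from 2 UMIs in Naïve, and of -1.39 in innate-like cells.

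The sum over the members for ConA+TCDD over ConA+Veh was 0.38 in gamma delta cells and -0.36 in NK, -0.87 in CD8 and -0.85 in CD4 cells. For ConA+FICZ over ConA+Veh it was 0.12 in NK cells, -0.47 in CD8 and -1.49 in CD4 cells.

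*Klr* molecules also appeared in the B gate, which entered no comparison of the members. It held 11, 211, 6 and 71 of them, or 4.18, 49.996, 2.98 and 17.2 CPM (counts per 1000000 UMIs of the gate), and the log2 ratio over Naïve was 3.58 in ConA+Veh and 2.04 in ConA+FICZ. Cells with at least 5 *Klr* UMIs, 7 in ConA+Veh and 4 in ConA+FICZ, held 164 and 55 of these, 96 of them in 1 cell, and their median depth was 6040 and 4859 UMIs against 4203.5 and 3628 in the gate. Without them the levels were 4.18, 11.1, 2.98 and 3.88.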

How the results depend on the processing

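No paired analysis was possible because each group is 1 library. Of the summed ratios, counts and shares that answer a comparison, 152 values under alternatives stayed within the counting interval of the reported value or within 1.5 times of a count, 87 moved further and 5 changed sign from a reported interval that excluded 0. Others, not counted in the 5, changed sign from a reported interval that included 0, among them the sums in innate-like cells for both AhR ligands and in gamma delta cells for ConA+FICZ. For single genes these numbers were 119, 5 and 2. The causes of these shifts were not tested. Gates on thinned cells leave few cells, 7, 6, 4 and 4 gamma delta and 21, 10, 6 and 6 innate-like cells.

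For the sum in NK cells, ConA+Veh over Naïve was -0.32 as the mean of cell shares, -0.32 in non-cycling cells and -0.61 on the conventional side. ConA+TCDD over ConA+Veh was -0.28 with gates on thinned cells, -0.47 in non-cycling cells and -0.27 on the conventional side. ConA+FICZ over ConA+Veh was -0.077 by cell shares and 0.029 in non-cycling cells.

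In innate-like cells, ConA+Veh over Naïve was -0.38 with strict gates, -1.87 with thinned gates, -1.86 without the deepest cells and -1.95 in non-cycling cells. ConA+TCDD over ConA+Veh was 0.25 with strict gates, 1.01 with thinned gates, 0.27 by cell shares and 0.56 in non-cycling cells. ConA+FICZ over ConA+Veh was 0.71 with strict and -0.83 with thinned gates. In gamma delta cells the same order of comparisons gave -1.64, 1.69 and 2.45 with thinned gates, -0.24 and -0.19 in non-cycling cells for the first pair, and -1.25 and 1.28 for that pair without *Ncr1* or *Eomes* cells.

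In CD8 cells, ConA+Veh over Naïve was -0.85 with strict gates, 0.31 by cell shares, -0.31 without the deepest cells and 0.81 in non-cycling cells. ConA+TCDD over ConA+Veh was -1.62 in non-cycling cells, and ConA+FICZ over ConA+Veh was -0.76 with thinned gates, -0.73 by cell shares and -1.35 in non-cycling cells. In CD4 cells, ConA+Veh over Naïve was -2.42 with strict and -0.076 with thinned gates, ConA+TCDD over ConA+Veh was 0.23 by cell shares and -2.13 in non-cycling cells, and ConA+FICZ over ConA+Veh was -3.13 with strict gates.

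The log2 ratio of the sum in NK over CD8 cells was 4.43, 4.54, 5.05 and 5.13 in the 4 libraries. With totals without ribosomal and mitochondrial genes it was 4.01, 4.32, 4.86 and 4.93. In the 3 ConA libraries it was 4.83, 5.26 and 5.31 with strict gates, 3.76, 4.29 and 4.41 by cell shares, 4.15, 4.72 and 4.74 without the deepest cells and 3.51, 4.66 and 4.89 in non-cycling cells, and in ConA+FICZ 5.39 with thinned gates.

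Counts of called members moved as follows. In NK cells the 6 lower in ConA+Veh were 3 by cell shares, 4 with thinned gates or the other totals and 5 with strict gates, all among the 6, the 1 lower in ConA+TCDD was 2 by cell shares, and the 1 higher in ConA+FICZ was 0 on the conventional side. In innate-like cells the 3 lower in ConA+Veh were 0 with strict gates, and the 1 lower in ConA+FICZ was 0 with thinned gates and by cell shares. In gamma delta cells the 2 lower in ConA+Veh were 0 with strict or thinned gates, and 1 without the deepest cells or without *Ncr1* or *Eomes* cells. In CD8 cells the 1 higher in ConA+Veh was 0 with strict gates, thinned gates or the other totals and 2 by cell shares, and the 2 lower in ConA+TCDD gave 1 with strict gates (*Klre1*), 1 with thinned gates (*Klrc1*, neither of the 2) and 4 by cell shares (*Klre1* and 3 others). In CD4 cells the 2 lower in ConA+Veh were 1 with strict gates, by cell shares or without the deepest cells and 0 with thinned gates, the 1 lower in ConA+TCDD was 0 with thinned gates or by cell shares, and the 2 lower in ConA+FICZ were 1 with strict and 0 with thinned gates. For ConA+Veh over Naïve, *Klrk1* in innate-like cells was 0.15 with strict gates and *Klrc1* in CD4 cells 0.25 with thinned gates.

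Shares of cells with a UMI of any member also depend on depth. Thinned to 500 UMIs they were 92.3%, 84.8%, 78.6% and 85.6% in NK cells, and 15.5%, 12.97% and 6.56% in CD8 cells of Naïve, ConA+Veh and ConA+FICZ. Without thinning they were 96.5% in NK cells of ConA+TCDD and 53.6%, 55.4%, 33.1% and 43.4% in CD8 cells.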
